A study of Mus musculus with 6 samples.

Results

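The genes described here encode amino acid transporters of 7 solute carrier families, Slc1a, Slc3a, Slc6a, Slc7a, Slc36a, Slc38a and Slc43a, and include the transporters of GABA and serine. Members were all probe sets that the platform annotation pairs with exactly 1 gene symbol, where that symbol is 1 of these family names followed by a number. This gave 118 of the 45101 probe sets on the array, and 58 of 18194 named genes. A probe set is a group of short probes that together report 1 transcript, and some genes have several. Levels were measured in the epididymal fat pads of male mice, 10 weeks old, on Affymetrix mouse expression arrays with 1 mouse per array. The 3 transgenic mice (aP2-nSREBP1c) carried nuclear SREBP-1c, the active form of a transcription factor of lipid synthesis, under the aP2 (Fabp4) promoter, which is active in fat cells. The 3 controls were wild type mice matched by litter, and both groups had the mixed C57BL6;SJL background. The labels call the transgenic mice lipodystrophic, meaning that fat tissue is lost or poorly formed, and they spell the transgene in more than 1 way.

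Amino acids cross membranes by carriers with overlapping substrates. Slc1a members carry acidic or small neutral amino acids, and Slc6a members couple uptake of GABA, taurine, creatine, glycine and monoamines to sodium and chloride. Most Slc7a members are light chains that work as exchangers with a heavy chain of the Slc3a family, while most Slc38a, Slc36a and Slc43a members carry neutral amino acids. In mouse fat, Slc7a10 (Asc-1, an exchanger of small neutral amino acids such as serine) is known as a surface marker of white fat cells, and Slc36a2 (PAT2) as one of brown and beige fat cells.

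The array of transgenic replicate 2 stood apart in its RNA quality controls. Its 3′ to 5′ signal ratio was 122 for the beta-actin control and 55.9 for Gapdh, against 1.11 to 1.81 and 0.772 to 1.22 on the other arrays. Its median signal was 37.7, against 53.4 to 65.4 on the other arrays. Calls and counts are therefore given with 6 arrays and again without that array. A gene given with 1 adjusted p and no mention of the second fit lay on the same side of the threshold in both. The Pcx control split the arrays another way, with ratios of 3.10 in transgenic replicate 1 and 3.06 in wild type replicate 3, and 14.1 to 52.0 on the other arrays.

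Over all 13111 genes tested, limma called 3.77% with 6 arrays and 15.4% without transgenic replicate 2 (adjusted p under 0.05). The summed signal of 14 fat cell markers was 32032 to 50606 in transgenic mice and 84413 to 95612 in wild type mice. Of the 14, 4 fell and 0 rose with 6 arrays (28.6%; 10 lower and 0 higher at an unadjusted p under 0.05), and 10 fell and 1, Cidea, rose without transgenic replicate 2 (78.6%). None of these markers was under 16 on every array, and Fabp4 read 12833.9 to 13779.1 in transgenic fat and 12376.4 to 14121.1 in wild type fat. Macrophage markers summed to 35753 to 49500 in transgenic mice and 17865 to 22165 in wild type mice. With 6 arrays 2 of 15 rose (13.3%), 9 rose and Cd163 fell without transgenic replicate 2 (66.7%), and with transgenic replicate 3 or any wild type array left out 0 rose. Transgenic replicate 2 was below every wild type mouse for Trem2 and Cd68. Mesothelium markers summed to 1414 to 2195 in transgenic mice and 5614 to 6276 in wild type mice. With 6 arrays 2 of 7 fell (28.6%), 6 fell without transgenic replicate 2 (85.7%), and with any other array left out 0 fell.

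Summed signals were 1677 to 2519 in transgenic mice and 775 to 922 in wild type mice for mast cells, and 2520 to 5087 in transgenic mice and 821 to 1140 in wild type mice for lymphocytes. They were 2150 to 7569 in transgenic mice and 9661 to 10685 in wild type mice for endothelial cells, and 342 to 717 in transgenic mice and 1566 to 2533 in wild type mice for skeletal muscle. With 6 arrays 2 of 6 mast cell and 1 of 9 lymphocyte markers rose, and 1 of 3 skeletal muscle and 0 of 9 endothelial markers fell (2 endothelial markers lower at an unadjusted p under 0.05). The counts without transgenic replicate 2 were 5 mast cell and 3 lymphocyte markers that rose, and 2 skeletal muscle and 5 endothelial markers that fell. With any wild type array left out they were 0 in all 4 lists, as was that of mast cells without transgenic replicate 3 and that of skeletal muscle without transgenic replicate 1. In whole fat pads, fewer cells of a type and less RNA per cell cannot be told apart.

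Of the 118 probe sets, 72 passed the filter on dim signals, and these represented 38 genes. The filter kept probe sets whose mean log2(signal + 16) over all 6 arrays corresponded to a signal of about 35.3 or more. A further 46 probe sets were too dim to be tested, and 20 genes had no tested probe set. With 6 arrays, 3 of the 38 genes fell in transgenic fat and 0 rose (limma, adjusted p under 0.05), which is 7.89% of them against 3.77% of all 13111 genes tested (1.54% lower and 2.23% higher). Those that fell were Slc7a10, Slc6a13 and Slc1a3, a serine exchanger, a GABA transporter and a glutamate transporter. Slc6a13 passed the filter on dim signals only through wild type mice. At an unadjusted p under 0.05, 5 of the 38 were lower and 4 higher. The share of all genes at that level was not counted, so the unadjusted counts here and elsewhere have no background beside them. Without transgenic replicate 2, 6 genes fell and 5 rose, which is 28.9% of the 38 against 15.4% of all genes (7.33% lower and 8.04% higher). The median log2 fold change, transgenic over wild type, was 0.13 over the 38 genes and -0.04 over all genes with 6 arrays, and 0.14 and 0.02 without that array.

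**Figure D1:**
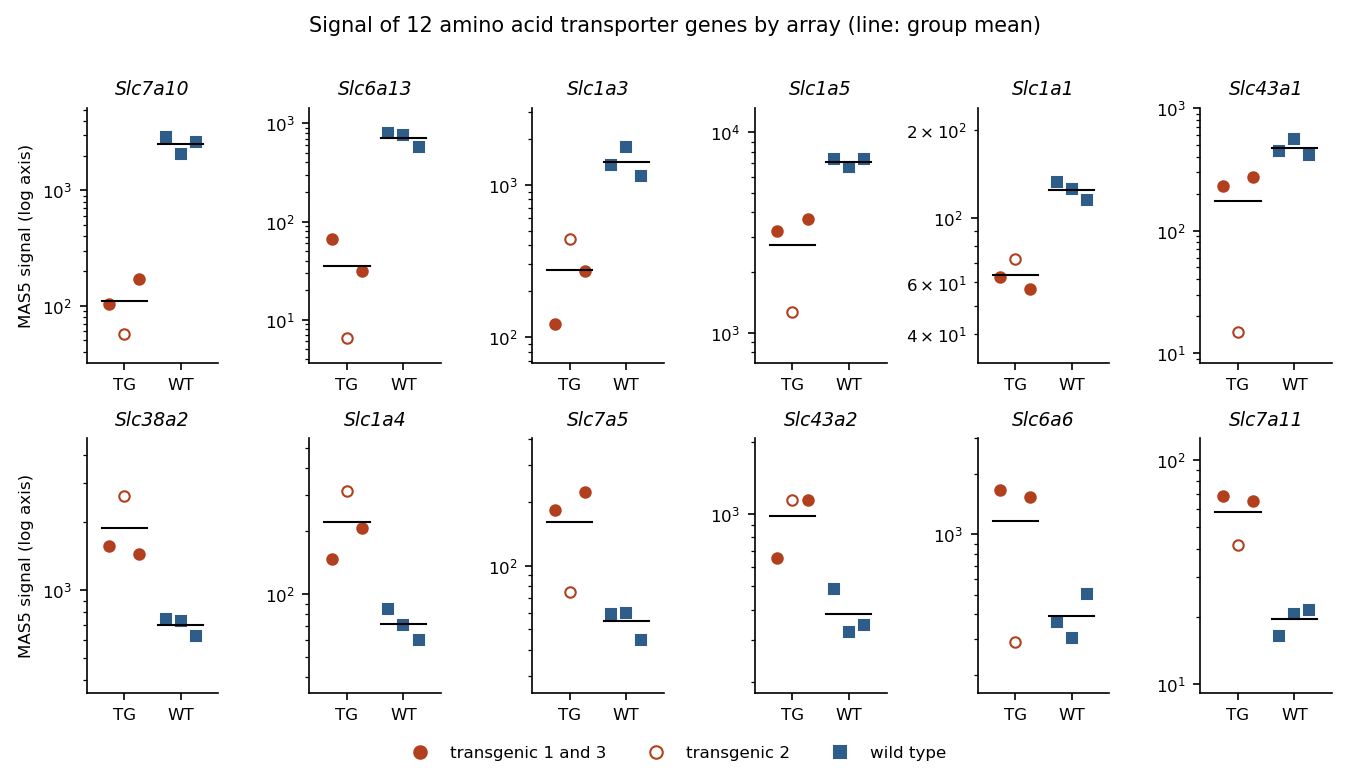
MAS5 signal (log axis) of 12 transporter genes on each array, with transgenic mice (TG) left of wild type mice (WT). Circles are transgenic and squares wild type mice, the open circle is transgenic replicate 2, and the line is the group mean. The genes were picked after their values were seen. Slc7a10 and Slc6a13 lie at 6.5 to 169.2 in transgenic mice and at 568.6 to 2877.1 in wild type mice.

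The starts of 5 of these genes are shown first, because they are the 3 that fell with 6 arrays and, for comparison, a pair of genes with higher signals in transgenic fat (Slc7a11 and Slc1a4). Each is RefSeq sequence from 250 bases before the annotated start to 10 after it. Capitals mark the letters TGATGNAA on either strand, a pattern known from binding sites of ATF4, the factor that raises amino acid genes when amino acids run short.
Slc7a10 (GRCm38.p6, chr7:35186135-35186394, plus strand): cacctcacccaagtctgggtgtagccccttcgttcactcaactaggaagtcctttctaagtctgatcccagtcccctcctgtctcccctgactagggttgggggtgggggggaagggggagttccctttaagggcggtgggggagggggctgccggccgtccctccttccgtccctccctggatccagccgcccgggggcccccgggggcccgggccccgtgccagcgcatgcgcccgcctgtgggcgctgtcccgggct
Slc6a13 (GRCm38.p6, chr6:121300038-121300297, plus strand): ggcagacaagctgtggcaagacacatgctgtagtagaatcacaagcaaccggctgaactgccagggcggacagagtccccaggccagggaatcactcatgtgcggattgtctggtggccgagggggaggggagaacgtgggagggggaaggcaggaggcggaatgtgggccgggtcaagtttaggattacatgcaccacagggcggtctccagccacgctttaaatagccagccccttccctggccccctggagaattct
Slc1a3 (GRCm38.p6, chr15:8710798-8711057, minus strand): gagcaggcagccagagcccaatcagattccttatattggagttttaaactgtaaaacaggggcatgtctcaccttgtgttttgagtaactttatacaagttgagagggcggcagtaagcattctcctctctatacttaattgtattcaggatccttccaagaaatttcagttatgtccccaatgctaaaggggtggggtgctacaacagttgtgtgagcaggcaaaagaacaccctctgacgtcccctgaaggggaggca
Slc7a11 (GRCm38.p6, chr3:50443604-50443863, minus strand): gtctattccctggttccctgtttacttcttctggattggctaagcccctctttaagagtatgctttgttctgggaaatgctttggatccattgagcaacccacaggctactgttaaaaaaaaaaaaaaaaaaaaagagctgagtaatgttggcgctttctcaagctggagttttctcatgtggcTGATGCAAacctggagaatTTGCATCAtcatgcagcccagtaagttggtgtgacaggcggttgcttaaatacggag
Slc1a4 (GRCm38.p6, chr11:20332704-20332963, minus strand): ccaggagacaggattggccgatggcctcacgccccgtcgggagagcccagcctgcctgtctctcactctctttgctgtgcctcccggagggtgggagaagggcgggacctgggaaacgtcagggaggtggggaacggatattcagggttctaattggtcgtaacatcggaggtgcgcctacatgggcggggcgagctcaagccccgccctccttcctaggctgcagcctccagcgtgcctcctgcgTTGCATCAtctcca
The pattern occurred in 2 places of the Slc7a11 window and in 1 of the Slc1a4 window, and these letters were not in the other 3 windows. Over full windows of 300 bases it was present in 5 of 62 promoters of 41 member genes (8.06%), those of Slc1a4, Slc6a21, Slc7a11 and Slc7a7, and in 3.97% of all 32851 promoters. Slc7a7 did not pass in either fit (log2 fold change 0.25, limma adjusted p = 0.752 with 6 arrays). Slc7a11 and Slc6a21 had no tested probe set. Slc6a21 read 9.1 to 35.1 in transgenic mice and 25.7 to 60.5 in wild type mice. The sterol element TCACNCCAC, a pattern known from SREBP sites, was in 0 of the 62 and in 1.24% of all. The E-box CACGTG, another such pattern, was in 9 of the 62 (14.5%) and in 7.15% of all. Both strands were searched, and the end letters of the patterns allow them to overlap one another. The genes and patterns were chosen after the windows and the signals had been seen, so the counts are a description only.

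Slc7a10 fell in transgenic fat. Its signal was 103.1, 57.3 and 169.2 in transgenic replicates 1, 2 and 3, against 2877.1, 2060.8 and 2639.5 in wild type replicates 1, 2 and 3. There was no overlap, and the brightest transgenic mouse was below the dimmest wild type mouse. The mean was 110 ± 56.3 in transgenic mice and 2526 ± 420 in wild type mice (SD, n = 3 each). On the log2(signal + 16) scale the difference was -4.42 ± 0.38 (SE; limma adjusted p = 0.00327), a level 21.4-fold lower in transgenic fat. Without transgenic replicate 2 it was -4.08 ± 0.24 (adjusted p = 9.63e-06), and with any 1 array left out the adjusted p stayed at or below 0.0345. On the arrays with low Pcx ratios, transgenic replicate 1 read 103.1 and wild type replicate 3 read 2639.5. The fat cell markers, of which 4 of 14 fell with 6 arrays, had a median log2 fold change of -1.67 with 6 arrays and -1.08 without transgenic replicate 2, and their part in the fall of Slc7a10 was not tested.

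Among the GABA transporters analysed here, Slc6a13 (GAT2, which also carries taurine) was the one with a tested probe set, and it fell. It read 67.2, 6.5 and 31.4 in the 3 transgenic mice, against 799.5, 770.4 and 568.6 in the 3 wild type mice. Every transgenic value lay far below every wild type value, and transgenic replicate 2 was below the 16 added before the logarithm. The transgenic mean was below the filter level, so Slc6a13 was tested only because of its wild type signal. The difference was -4.01 ± 0.48 on the log2(signal + 16) scale (SE; limma adjusted p = 0.00867), and -3.52 ± 0.27 without transgenic replicate 2 (adjusted p = 5.62e-05). Its size depends on the added constant, being -4.79 with 1 and -3.00 with 64. The call was lost without wild type replicate 1 (adjusted p = 0.0655) or wild type replicate 2 (adjusted p = 0.0679).

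Slc6a12, the betaine and GABA transporter gene next to Slc6a13 on chromosome 6, was dim in both groups, at 4.8 to 9.0 in transgenic mice and 4.8 to 13.4 in wild type mice. Slc6a11, a GABA transporter gene of the brain, was as dim, with a highest signal of 15.5 in transgenic mice and 11.9 in wild type mice over its 2 probe sets. Of the enzymes of GABA breakdown, Abat (GABA transaminase) read 139.0, 133.1 and 178.9 in transgenic mice and 328.9, 250.1 and 178.2 in wild type mice, and did not pass the test (adjusted p = 0.324, and 0.195 without transgenic replicate 2). The groups of Abat overlapped, as transgenic replicate 3 was above wild type replicate 3.

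The other Slc6a genes carry taurine, creatine, glycine, monoamines and neutral amino acids. Slc6a6, the taurine transporter gene, had 1672.0, 291.0 and 1536.9 in transgenic mice, against 365.1, 303.8 and 503.5 in wild type mice. Transgenic replicates 1 and 3 were above every wild type mouse, and transgenic replicate 2 was below all of them. With 6 arrays it did not pass the test (log2 fold change 1.22 ± 0.66, adjusted p = 0.421), and without transgenic replicate 2 it rose by 2.02 ± 0.22 (SE; adjusted p = 0.00042).

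A second Slc6a6 probe set (1421346_a_at) had the same arrangement, with 1133.3, 60.8 and 970.5 in transgenic mice and 404.7, 317.1 and 300.2 in wild type mice. Of the taurine synthesis genes, Cdo1 (cysteine dioxygenase) read 3681.3, 2507.1 and 4774.3 in transgenic mice, against 7725.8, 8204.1 and 8509.5 in wild type mice. Its adjusted p was 0.0542 with 6 arrays, and it fell without transgenic replicate 2 (log2 fold change -0.95, adjusted p = 0.00267). Csad and Ado did not pass in either fit. Their log2 fold changes without transgenic replicate 2 were -0.26 and -0.03 (limma adjusted p = 0.482 and 0.946). With 6 arrays the adjusted p was 0.497 and 0.961.

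Slc6a8, the creatine transporter gene, read 503.5, 464.8 and 819.9 in transgenic mice, against 411.0, 422.9 and 395.1 in wild type mice. All transgenic values were above the wild type values, but the difference of 0.48 ± 0.29 did not pass the test (adjusted p = 0.46), nor did it without transgenic replicate 2 (0.63, adjusted p = 0.107). Its dimmer probe set (1448596_at) rose without that array (log2 fold change 1.06, adjusted p = 0.008), where transgenic replicate 2 read 48.3 and transgenic replicates 1 and 3 read 396.0 and 455.6, against 168.6 to 225.3 in wild type mice. Slc6a9, the glycine transporter GlyT1, read 369.7, 215.1 and 479.9 in transgenic mice and 282.2, 278.6 and 274.8 in wild type mice (adjusted p = 0.71, and 0.0902 without that array).

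The noradrenaline transporter gene Slc6a2 had 3 tested probe sets, none past the test, and the brightest read 62.5 to 120.2 in transgenic mice and 93.7 to 118.1 in wild type mice. Slc6a17, Slc6a18 and Slc6a19, which carry neutral amino acids in brain, kidney and gut, stayed below 100 on every array. The carriers of dopamine (Slc6a3) and serotonin (Slc6a4) had no tested probe set, with highest signals of 52.6 and 48.6. Over the Slc6a family, 1 of 8 tested genes fell with 6 arrays.

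Of the glutamate carriers of the Slc1a family, Slc1a3 fell. Slc1a3 (GLAST) takes up glutamate and aspartate and is best known from astrocytes. Its brightest probe set (1443749_x_at) read 121.9, 440.3 and 269.9 in transgenic mice, against 1337.9, 1764.9 and 1139.5 in wild type mice. All transgenic values were below the wild type values, and transgenic replicate 2 was the highest of its group. The difference was -2.42 ± 0.46 on the log2 scale (SE; limma adjusted p = 0.0437), a level 5.37-fold lower, and -2.83 ± 0.31 without transgenic replicate 2 (adjusted p = 0.000389).

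This call lies close to the threshold and was lost under 9 of 18 alternatives, among them the removal of any array other than transgenic replicate 2 (adjusted p 0.0519 to 0.225, the highest without wild type replicate 2). The suffix of the probe set says that some of its probes may also match other transcripts. A second probe set without that suffix (1452031_at) read 111.5, 275.7 and 172.1 in transgenic mice, against 983.8, 1546.0 and 1035.9 in wild type mice, and also passed (-2.63 ± 0.37, adjusted p = 0.0168). Of the 6 Slc1a3 probe sets, 5 were tested and 2 passed with 6 arrays. In the other 3 the adjusted p was 0.051, 0.0821 and 0.0932, and without transgenic replicate 2 all 5 passed. The probe set at 0.0932 (1439072_at) passed the filter on dim signals only through wild type mice. All 6 were lower in every transgenic mouse than in any wild type mouse.

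Markers of nerve and glia, where Slc1a3 is abundant, were dim, with a summed signal of 202 to 271 in transgenic mice and 155 to 203 in wild type mice, and Snap25 was under 16 on every array. None of the 3 tested markers fell in either fit and 1 rose without transgenic replicate 2 (limma; 0 lower at an unadjusted p under 0.05 with 6 arrays), and their part in the result was not tested. Slc1a1 (EAAT3), the neuronal and epithelial glutamate carrier, read 62.4, 71.9 and 57.2 in transgenic mice, against 131.9, 125.3 and 114.8 in wild type mice. Each transgenic value was below each wild type value, the adjusted p was 0.105 with 6 arrays, and Slc1a1 fell by 0.88 on the log2 scale without transgenic replicate 2 (adjusted p = 0.0219). A second tested Slc1a1 probe set (1425415_a_at) was also lower in every transgenic mouse. It did not pass in either fit (limma adjusted p = 0.283, and 0.221 without transgenic replicate 2). Slc1a2, Slc1a6 and Slc1a7, glutamate carriers of brain and retina, had no tested probe set, with a highest signal of 33.6 among them. Glutamine synthetase (Glul) read 4196.2, 6730.5 and 6023.7 in transgenic mice and 4585.8, 4256.9 and 4651.3 in wild type mice (adjusted p = 0.513, and 0.614 without transgenic replicate 2).

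The pair of neutral carriers in the Slc1a family differed in sign. Slc1a5 (ASCT2), an exchanger of glutamine, serine and alanine, read 3229.2, 1265.5 and 3685.1 in transgenic mice, against 7350.8, 6730.0 and 7367.4 in wild type mice. Every transgenic value was below every wild type value. Its adjusted p was 0.109 with 6 arrays (-1.53 ± 0.39), where transgenic replicate 2 was lowest, and it fell by 1.05 without that array (adjusted p = 0.000927). The second Slc1a5 probe set (1440379_at) was also lower in every transgenic mouse, at 172.7, 11.3 and 118.3, against 273.1, 337.2 and 939.4 in wild type mice, and did not pass in either fit.

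Slc1a4 (ASCT1), which exchanges serine, alanine and cysteine, read 146.9, 310.3 and 206.9 in transgenic mice, against 84.7, 71.5 and 60.2 in wild type mice. All 3 transgenic mice were above the wild type mice. The log2 fold change was 1.38 ± 0.31 (adjusted p = 0.0733) with 6 arrays, and Slc1a4 rose by 1.12 ± 0.24 without transgenic replicate 2 (adjusted p = 0.0135). Its other 2 probe sets also rose in that fit, by 2.06 and 2.13, but read 3.3 and 6.1 in transgenic replicate 2. The one with 2.13 (1423550_at) also read 3.3 in wild type replicate 2. It passed the filter on dim signals only through transgenic mice. The difference between the changes of Slc1a4 and Slc1a5 was not tested.

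Slc38a2 (SNAT2), a sodium-coupled carrier of small neutral amino acids that cells make more of when amino acids are scarce, read 1574.0, 2626.0 and 1454.6 in transgenic mice, against 750.1, 728.9 and 628.9 in wild type mice. The lowest transgenic signal was above the highest wild type signal. The log2 fold change of 1.36 ± 0.28 did not pass with 6 arrays (adjusted p = 0.0606), passed after quantile normalization (adjusted p = 0.0419), and was 1.09 ± 0.17 without transgenic replicate 2 (adjusted p = 0.00272). Its other 2 probe sets did not pass in either fit, and one of them (1429593_at) read 265.2 to 368.5 in transgenic mice and 235.1 to 325.8 in wild type mice.

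Slc38a2 lies between Slc38a1 and Slc38a4 on chromosome 15. Slc38a1 (SNAT1), a glutamine carrier, read 230.6, 131.2 and 218.0 in transgenic mice and 146.3, 132.3 and 174.1 in wild type mice (adjusted p = 0.627). Slc38a4, a carrier known from liver, was dim in both groups, at 2.3 to 20.5 in transgenic mice and 1.3 to 10.9 in wild type mice. The lysosomal members Slc38a7, a glutamine exporter, and Slc38a9, an arginine sensor of the mTORC1 pathway, had log2 fold changes of -0.12 (adjusted p = 0.862) and 0.00 (adjusted p = 0.994).

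Slc38a10 had 7 probe sets that differed in which array stood out. Its brightest (1456241_a_at) read 1537.0, 3477.7 and 2299.6 in transgenic mice and 2374.5, 2005.9 and 1806.2 in wild type mice, with transgenic replicate 2 the highest (adjusted p = 0.811). Another (1427295_at) read 1074.8, 45.6 and 1164.4 in transgenic mice and 1591.4, 1387.8 and 1344.2 in wild type mice, with transgenic replicate 2 far the lowest. One more (1429979_a_at) was high on the arrays with low Pcx ratios, at 627.2 in transgenic replicate 1 and 718.9 in wild type replicate 3, and at 53.2 to 147.6 on the other arrays. No Slc38a10 probe set passed with 6 arrays, and 1434617_x_at was lower without transgenic replicate 2 (log2 fold change -1.68, adjusted p = 0.00558).

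**Figure D2:**
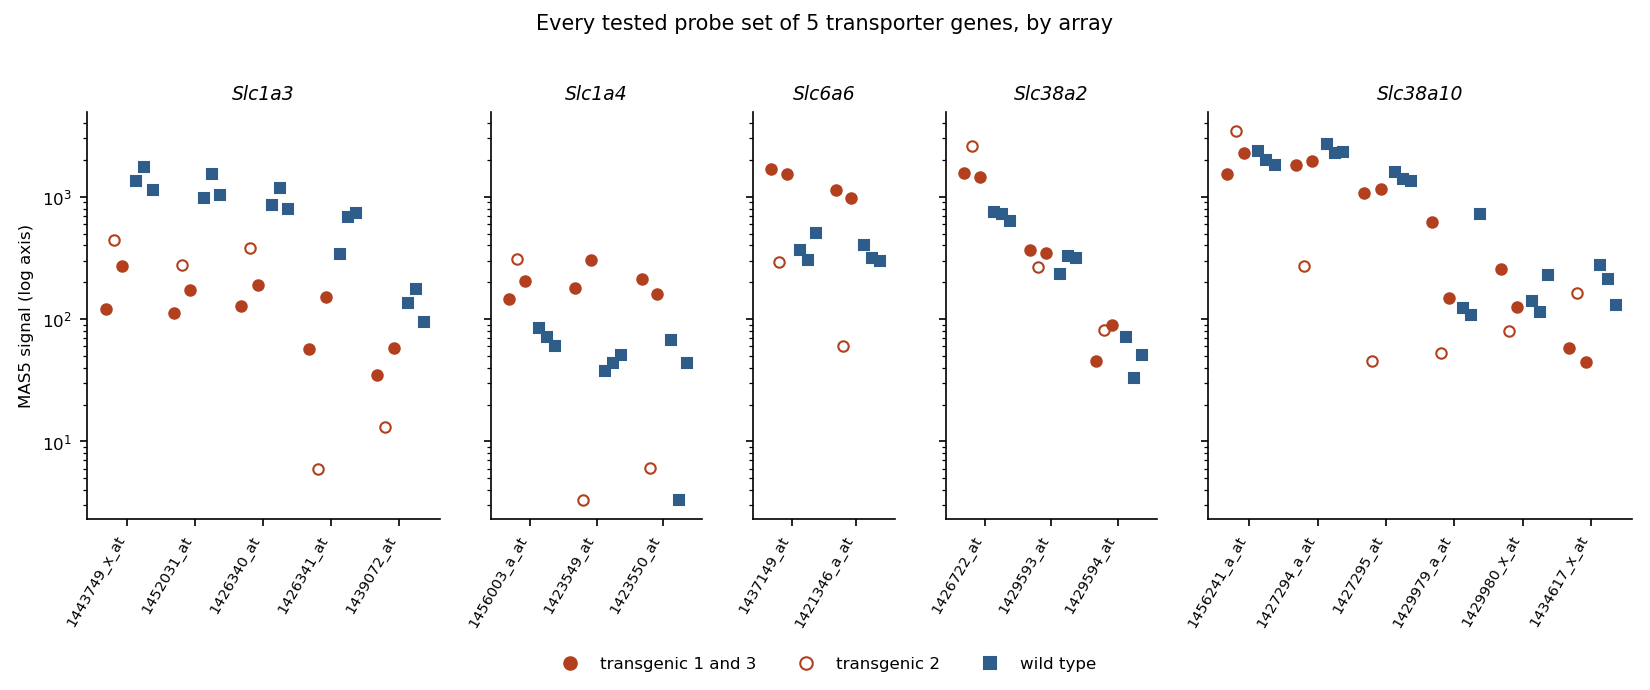
MAS5 signal (log axis) of every tested probe set of 5 transporter genes on each array, with transgenic mice left of wild type mice within each probe set. The open circle is transgenic replicate 2. The genes were picked after their values were seen. In Slc38a10 that array reads 45.6 in one probe set and 3477.7 in another, while in Slc1a3 all transgenic points lie below the wild type points in each probe set.

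Of the 11 tested genes of the Slc7a family, Slc7a10 alone passed with 6 arrays. Slc7a5 (LAT1), which brings in leucine and other large neutral amino acids, read 184.3, 74.8 and 223.1 in transgenic mice, against 59.0, 59.9 and 44.7 in wild type mice. All transgenic mice were above the wild type mice, and transgenic replicate 2 was the nearest to them. The log2 fold change of 1.22 ± 0.39 did not pass with 6 arrays (adjusted p = 0.182), passed after quantile normalization (adjusted p = 0.0412), and was 1.64 ± 0.22 without transgenic replicate 2 (adjusted p = 0.00132).

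Slc3a2 (CD98), the heavy chain that partners Slc7a5 and several other light chains, read 2580.8, 2252.4 and 3133.8 in transgenic mice, against 2163.7, 1709.5 and 1778.7 in wild type mice. The groups did not overlap, but the difference did not pass with 6 arrays (0.49 ± 0.21, adjusted p = 0.317), nor without transgenic replicate 2 (0.60 ± 0.17, adjusted p = 0.0504). Slc3a1, the heavy chain known from kidney and gut, had no tested probe set.

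Slc7a11 (xCT), which exchanges glutamate for cystine, had no tested probe set either. Its brighter one read 69.1, 41.8 and 65.1 in transgenic mice, against 16.4, 20.5 and 21.4 in wild type mice. The groups did not overlap, and in the fit with no filter on dim signals the log2 fold change was 1.06 ± 0.26 (adjusted p = 0.128). Slc7a8 (LAT2) read 227.2, 117.6 and 251.5 in transgenic mice and 229.6, 222.0 and 220.4 in wild type mice (log2 fold change -0.22, adjusted p = 0.748), and its sign turned under 4 alternatives.

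The arginine and lysine carriers Slc7a1, Slc7a2 and Slc7a3 had log2 fold changes of 0.39, 0.21 and 0.13, with adjusted p values of 0.493, 0.634 and 0.82. The exchangers Slc7a6 and Slc7a7 had 0.11 (adjusted p = 0.844) and 0.25 (adjusted p = 0.752). Slc7a4, Slc7a9 and Slc7a13 did not pass in either fit, and Slc7a12, Slc7a14 and Slc7a15 had no tested probe set.

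The Slc43a genes encode sodium-independent carriers of branched-chain and other large neutral amino acids, except Slc43a3, which is known as a nucleobase transporter. Slc43a1 (LAT3) read 230.6, 14.9 and 272.9 in transgenic mice, against 441.3, 556.1 and 415.8 in wild type mice. The groups did not overlap, with transgenic replicate 2 far below the rest. The adjusted p was 0.321 with 6 arrays (-1.89 ± 0.83), and Slc43a1 fell by 0.86 without that array (adjusted p = 0.0227).

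Slc43a2 (LAT4) read 658.4, 1142.4 and 1147.0 in transgenic mice, against 486.8, 322.6 and 343.5 in wild type mice. Every transgenic mouse was above every wild type mouse. The log2 fold change of 1.30 ± 0.32 did not pass with 6 arrays (adjusted p = 0.0964), passed after quantile normalization (adjusted p = 0.0402), and was 1.17 ± 0.27 without transgenic replicate 2 (adjusted p = 0.0209). A second tested Slc43a2 probe set (1434308_at) read 212.3, 69.6 and 318.0 in transgenic mice, against 153.2, 161.6 and 137.2 in wild type mice. There transgenic replicate 2 was below every wild type mouse. This probe set did not pass in either fit (limma adjusted p = 0.883, and 0.0629 without transgenic replicate 2). Slc43a3 read 794.6 to 1076.8 in transgenic mice and 884.2 to 979.6 in wild type mice (log2 fold change -0.05, adjusted p = 0.926).

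None of the 4 Slc36a genes, which encode proton-coupled carriers of small amino acids, passed in either fit (limma; smallest adjusted p 0.564 with 6 arrays, and 0 at an unadjusted p under 0.05). Slc36a2, Slc36a1 and Slc36a3 are neighbours on chromosome 11. Slc36a2 read 1793.2, 2493.8 and 2350.5 in transgenic mice and 2266.0, 1592.5 and 1821.0 in wild type mice, and the groups overlapped (0.22 ± 0.23, adjusted p = 0.653). Brown fat markers summed to 4430 to 5863 in transgenic mice and 727 to 1134 in wild type mice, with 2 of 6 tested higher by the test, 3 of 6 without transgenic replicate 2 and 1 of 6 with any other array left out, while Ucp1, which defines brown fat, was under 16 on every array. Cidea is in both the brown fat and the fat cell list, so these lists are not independent. Slc36a4 read 328.5, 948.2 and 512.8 in transgenic mice and 478.4, 366.0 and 293.8 in wild type mice, with transgenic replicate 2 the highest of all.

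**Figure D3:**
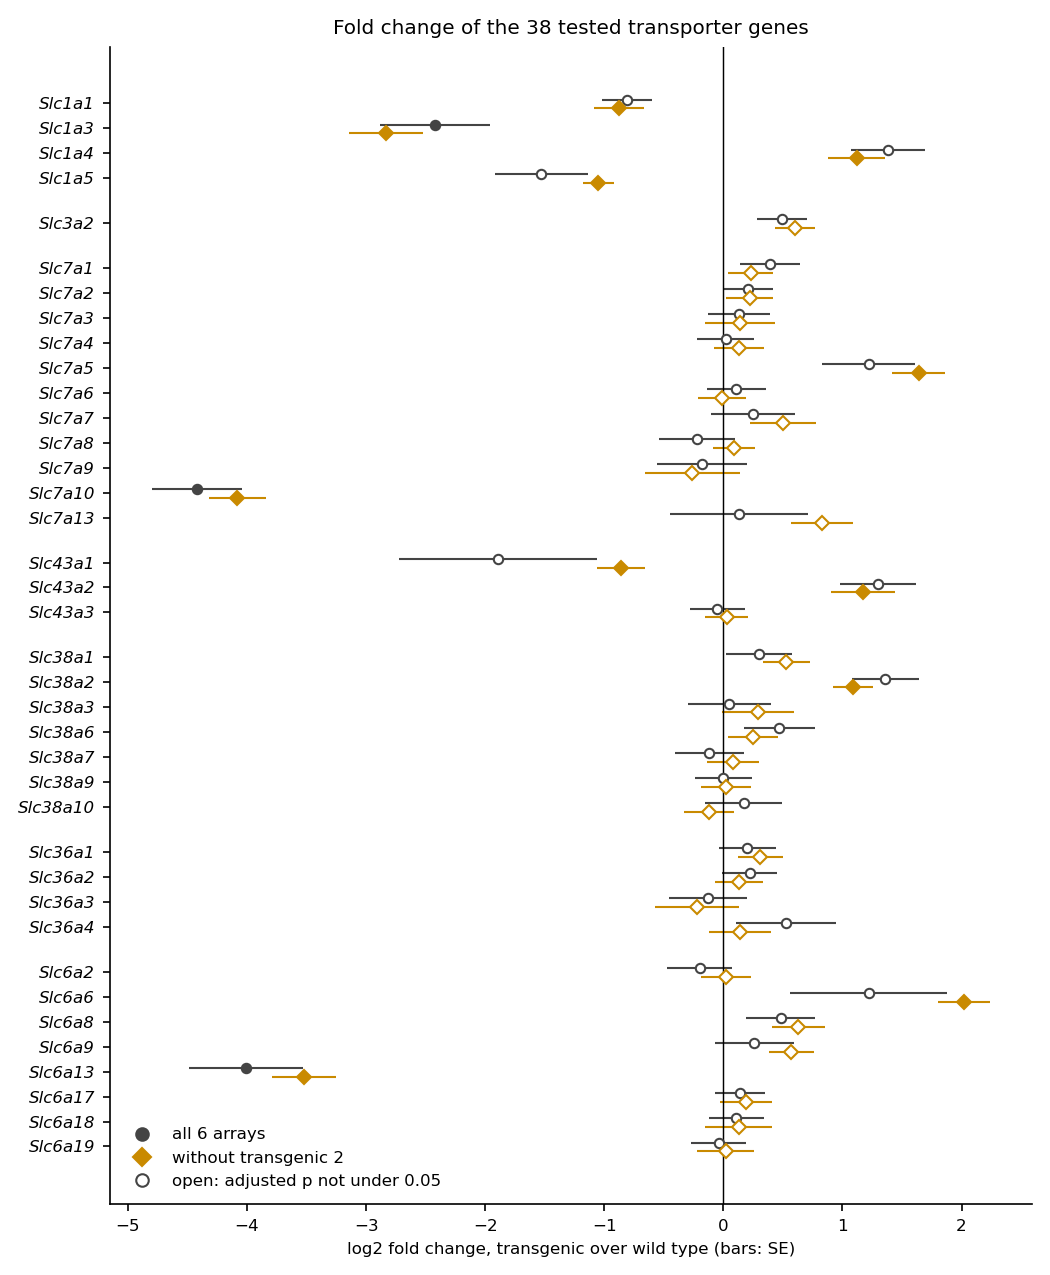
Log2 fold change, transgenic over wild type, of the 38 tested transporter genes grouped by family, with bars of 1 SE. Grey circles are the fit with 6 arrays and gold diamonds the fit without transgenic replicate 2, and filled symbols have an adjusted p under 0.05. Slc7a10 at -4.42, Slc6a13 at -4.01 and Slc1a3 at -2.42 are filled in both fits.

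Counted by probe set, 4 of 72 fell and 0 rose with 6 arrays, which is 5.56% against 2.97% of all 27022 tested, 1.30% lower and 1.67% higher (limma, adjusted p under 0.05). At an unadjusted p under 0.05, 12 were lower and 5 higher, with no share of all probe sets counted at that level. Without transgenic replicate 2, 11 fell and 9 rose, 27.8% against 13.2% of all (6.23% lower and 6.96% higher). Among all 118, tested or not, the groups did not overlap in 29 (24.6%, 16 lower and 13 higher), against 21.5% of all probe sets on the array (11.6% lower and 9.95% higher). That share is near the background.

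Transgenic replicate 2 had the lowest signal of the 6 arrays in 30 of the 72 tested probe sets (41.7%) and the highest in 11 (15.3%), against 44.6% and 24.5% of all tested probe sets. Some probe sets passed the filter through 1 group only. The mean was below the filter level in transgenic mice but not in wild type mice for 3 (Slc6a13, Slc7a9 and Slc1a3 probe set 1439072_at). The reverse held for 2 (Slc1a4 probe set 1423550_at and Slc7a13 probe set 1449301_at). Of the 20 genes with no tested probe set, 9 averaged below 16 in both groups in every probe set.

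Genes related to amino acid transport were counted from 8 lists. Of 17 tested carriers outside the 7 families, 0 rose or fell with 6 arrays (limma; 4 higher and 0 lower at an unadjusted p under 0.05), and 5 rose without transgenic replicate 2 (29.4%, against 15.4% of all genes). They were Slc15a3, Slc25a22, Slc25a39, Slc25a44 and Mfsd12. Slc15a3, a lysosomal carrier of histidine and peptides known from macrophages, read 515.1, 234.5 and 905.2 in transgenic mice, against 119.9, 88.9 and 89.8 in wild type mice. Mfsd12, which brings cysteine into lysosomes, read 1090.5, 715.4 and 1514.2 in transgenic mice, against 451.2, 400.1 and 397.1 in wild type mice. Without transgenic replicate 2 their adjusted p was 0.000251 and 0.000773. The groups did not overlap in either gene, and the part of the macrophage markers, of which 2 of 15 rose with 6 arrays and 9 without transgenic replicate 2, was not tested.

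Serine synthesis moved in both directions. Phgdh, its entry enzyme, read 325.9, 192.1 and 320.6 in transgenic mice, against 5106.6, 5011.7 and 4630.9 in wild type mice, and had a log2 fold change of -4.10 ± 0.26, a fall (adjusted p = 0.00142). Psph, its last enzyme, read 2023.3, 2049.2 and 1997.8 in transgenic mice, against 432.7, 382.2 and 382.1 in wild type mice, and rose by 2.30 ± 0.20 (adjusted p = 0.00331). Psat1, the enzyme between them, read 1016.8, 1091.8 and 1391.2 in transgenic mice, against 2001.3, 1624.2 and 1727.8 in wild type mice, without passing (adjusted p = 0.233, and 0.0829 without transgenic replicate 2). The groups were apart in all 3 genes. Phgdh and Psph were the calls among 11 tested genes of serine and glycine metabolism, with 6 arrays and without transgenic replicate 2 (18.2% in both fits, against 3.77% and 15.4% of all genes).

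Of 38 tested amino acid response genes of the ATF4 pathway, 4 rose and 1 fell (13.2%, against 3.77% of all genes). Atf3, Psph, Aldh1l2 and Nupr1 rose by 1.59 to 2.30 on the log2 scale, and Phgdh fell. Atf3 and Nupr1 are general stress response genes, and Aldh1l2 is a mitochondrial folate enzyme. Atf4 itself read 1667.2, 727.1 and 2667.3 in transgenic mice and 1355.4, 1365.0 and 1152.3 in wild type mice (adjusted p = 0.846, and 0.0624 without transgenic replicate 2). Asns (asparagine synthetase), a standard target of the pathway, read 524.6, 724.5 and 769.6 in transgenic mice, against 1405.1, 1120.9 and 1252.2 in wild type mice (adjusted p = 0.127), and fell without transgenic replicate 2 (-0.96, adjusted p = 0.0147). In that fit 7 of the list rose and 5 fell (31.6%, against 15.4% of all genes). With transgenic replicate 3 or any wild type array left out, 1 of the list rose.

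Of 14 genes of glutamine and glutamate metabolism, Gpt and Prodh fell and 0 rose with 6 arrays (14.3%, against 3.77% of all genes; 0 higher at an unadjusted p under 0.05). Without transgenic replicate 2, 4 fell and 2 rose, Got1 and Aldh4a1 (42.9%, against 15.4% of all genes). Aldh4a1 read 2384.3, 78.8 and 2843.0 in transgenic mice, against 323.9, 261.1 and 319.8 in wild type mice. Its limma adjusted p was 0.589 with 6 arrays, where transgenic replicate 2 was below every wild type mouse. Without that array its log2 fold change was 3.05 (adjusted p = 1.33e-05). Prodh lost its call when any array other than transgenic replicate 2 was left out (adjusted p up to 0.213). Gpt, an alanine transaminase, read 261.0, 145.5 and 250.7 in transgenic mice, against 2697.5, 2206.3 and 2456.3 in wild type mice (-3.43 ± 0.29, adjusted p = 0.00324). Prodh, the entry enzyme of proline breakdown, read 201.7, 219.1 and 233.8 in transgenic mice, against 517.6, 541.2 and 613.6 in wild type mice (-1.29 ± 0.22, adjusted p = 0.0337). The groups did not overlap in either gene. Of 17 genes of GABA, taurine and creatine metabolism, Aldh9a1 rose and 0 fell (5.88%, against 3.77% of all genes; 1 lower at an unadjusted p under 0.05), a call lost when any wild type array was left out (adjusted p up to 0.0637). In the fit without transgenic replicate 2, Aldh9a1 rose and 2 fell, Cdo1 and Fmo1 (17.6%, against 15.4% of all genes). Aldh9a1, an aldehyde dehydrogenase of carnitine and GABA synthesis, read 3572.4, 5567.9 and 4479.4 in transgenic mice, against 1174.2, 1144.6 and 1118.6 in wild type mice (1.95 ± 0.22, adjusted p = 0.00672).

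In the remaining 3 lists, as for the carriers outside the 7 families, the 6-array fit called 0 genes. The list named for cystine use and glutathione synthesis (22 tested) also holds genes with other roles, such as Hmox1. Of this wider list 7 were higher and 0 lower at an unadjusted p under 0.05. Without transgenic replicate 2, 7 rose (31.8%, against 15.4% of all genes), among them Hmox1, Srxn1, Gclm and Gsr. Hmox1, a haem-degrading enzyme of the oxidative stress response, read 2069.8, 761.9 and 2487.0 in transgenic mice, against 322.1, 318.2 and 294.7 in wild type mice (adjusted p = 0.0508 with 6 arrays). For breakdown of branched-chain amino acids (23 tested) 2 were higher and 4 lower at an unadjusted p under 0.05. Without that array 2 rose and 5 fell (30.4%, against 15.4% of all genes). For amino acid sensing upstream of mTORC1 (31 tested) the counts were 3 higher and 2 lower at an unadjusted p under 0.05. Without that array 1 rose and 2 fell (9.68%, below the 15.4% of all genes).

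**Figure D4:**
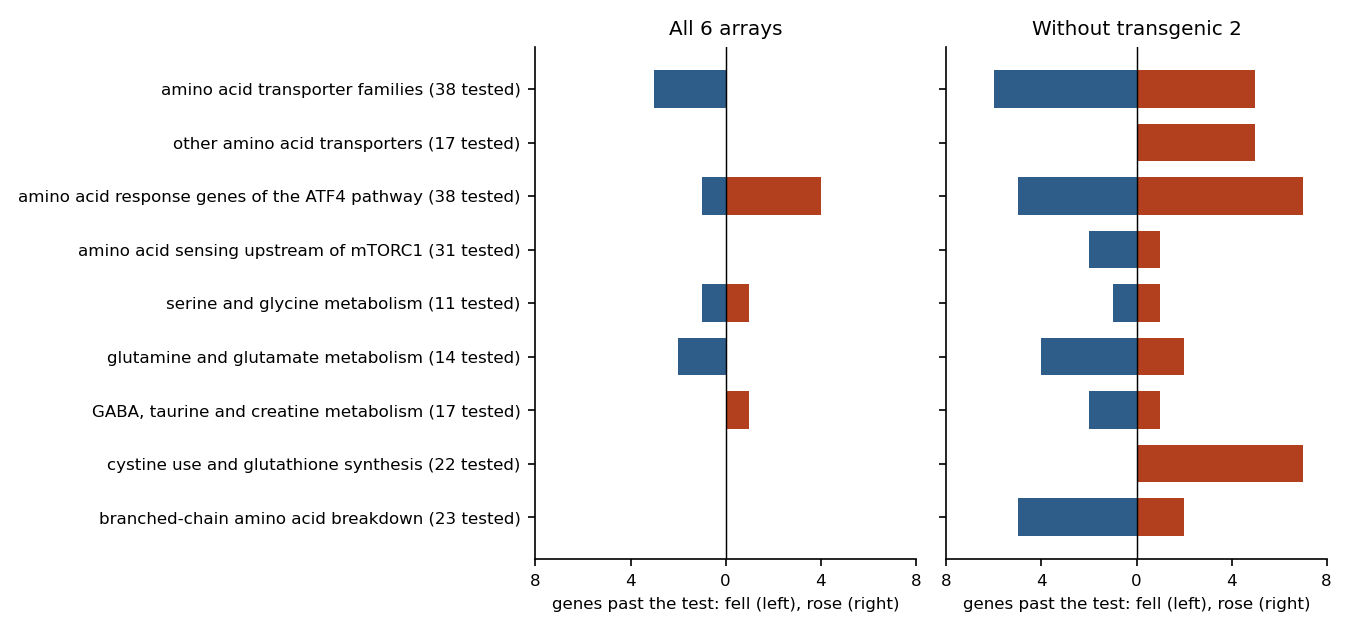
Number of genes with an adjusted p under 0.05 that rose (bars to the right) or fell (bars to the left) in transgenic fat, for the transporter families and 8 lists of related genes, with 6 arrays and without transgenic replicate 2. The transporter families have 3 falls with 6 arrays, and 6 falls and 5 rises without that array.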

How the data were processed

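The deposited table gives a linear intensity for each probe set on each array, which the authors computed with MAS5, per the submitters' processing notes. Its version, scaling target and detection calls are not stated in the labels, so no bound could be put on a fold change against a dim signal. Probe sets were named through the platform annotation table. The 64 control probe sets were left out, then the dimmest 40% by mean log2 signal, leaving 27022. Log2(signal + 16) was compared between groups with limma 3.58.1 in R 4.3.3 (lmFit, eBayes with trend, two-sided), with Benjamini-Hochberg adjustment over all tested probe sets and a threshold of 0.05. Where a gene had several tested probe sets, the brightest on average stood for it. The test was checked on simulated data. Mice are separate animals, and 3 per group limits the precision.

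Members, lists and tests were chosen with earlier results of these data known. Values were described for member genes past the threshold in either fit, the 10 brightest, and GABA, serine and neutral amino acid carriers, and for the list members past the threshold. Other genes and probe sets with values were chosen after they were seen. Alternatives were offsets of 1 and 64, no filter or one of 60%, quantile normalization, median centring, robust eBayes or no trend, a block for replicate number, array weights, each array left out, the mean over the probe sets of a gene, and quantile normalization without transgenic replicate 2. Promoters are RefSeq windows of GRCm38.p6. No label names a build for the array, and no other coordinates were used.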

Additional observations from a re-analysis of the deposited data

How the results depend on the processing

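Slc7a10 kept its direction and its call under all 18 alternatives (log2 fold change -4.75 to -3.93). Slc6a13 kept its direction under all 18 and lost its call under 2, and Slc1a3 lost its call under 9. With 1 array left out, 50 to 1683 probe sets fell and 91 to 1882 rose over the whole array, against 350 and 452 with 6 arrays. The highest counts came without transgenic replicate 2, and counts were more than 1.5 times lower without transgenic replicate 3 or any wild type array. Among the members, 1 to 11 probe sets and 1 to 6 genes fell with 1 array left out, and 0 to 9 probe sets and 0 to 5 genes rose, with rises only without transgenic replicate 2. Quantile normalization of 6 arrays gave 3 probe sets and 3 genes that rose. Array weights gave 8 probe sets and 6 genes that rose, 10 and 5 that fell, and 1912 and 1449 over the whole array. Quantile normalization without transgenic replicate 2 gave 13 probe sets and 8 genes that rose, 13 and 6 that fell, and 2417 and 2559 over the whole array. The cause of these shifts was not tested. Median centring and quantile normalization raised the log2 fold changes of all genes by a median of 0.12 and 0.13.

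No label says that the replicate numbers pair the mice. The deviations of same-numbered mice from their group means correlated at -0.37, 0.09 and -0.05. The highest correlation was 0.45, between transgenic replicate 1 and wild type replicate 3. With 3 mice per group, these values cannot settle whether the numbers mark a pairing. With the replicate number as a block, 193 probe sets rose and 148 fell over the whole array, and 2 member genes fell, Slc1a3 being lost (adjusted p = 0.0583).

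Of genes with no call, the log2 fold change of Slc38a10 (0.17) turned to -0.12 without transgenic replicate 2, -0.19 with quantile normalization as well, and -0.74 as the mean of its probe sets (-0.12 to 0.46 with 1 array left out). That of Slc43a3 (-0.05) turned to 0.07 with median centring, 0.10 with array weights, 0.01 without transgenic replicate 1, 0.03 without transgenic replicate 2 and 0.01 with quantile normalization as well. That of Slc7a8 (-0.22) turned to 0.00 with quantile normalization, 0.07 with array weights, and 0.09 without transgenic replicate 2 with and without quantile normalization (-0.41 to 0.09 with 1 array left out). Signals near 16 are close to background, which limits what the dim members can show.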
